A study of Mus musculus with 12 samples.

Results

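Gene by gene, mouse blood taken 1 day after burn/tenotomy, a burn given together with the cutting of a tendon, was compared with blood taken 6 h after it. The comparison takes 8 of the 12 libraries of the series, 4 labelled 6h and 4 labelled Day1. Genes were included when their deposited value was at least 1 in at least 4 of these 8 libraries, which 10108 of 37583 genes met. The third group of 4 libraries, labelled Day7, entered the fit for its estimate of the spread only. All mice were wild type and all carried the injury, and the labels set the groups apart by time alone. The labels give neither sex nor age, and uninjured animals were not analysed here. The blood was enriched on the iChip, a microfluidic sorter that removes most red cells and platelets by size and then depletes labelled cells. The labels call the product cMPCs and blood cells, cMPCs being circulating mesenchymal progenitors, and the title links it to heterotopic ossification (HO), bone that forms in soft tissue.

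Injury sets off an acute-phase response within hours, in which cytokines such as interleukin-6 drive hepatocytes to make fibrinogen, haptoglobin and other plasma proteins. Blood leukocytes respond at the same time with immediate early genes, cytokines and receptors, and adrenal corticosteroids and the circadian clock set the level of many transcripts. Young red cells (reticulocytes) still hold mRNA, mainly for globins and for the enzymes that clear their organelles. RNA from any of these sources, or from tissue cells carried into the sample, can appear in a bulk library. Fewer cells of a type and less RNA per cell cannot be told apart in such data.

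Libraries of one group were unlike each other. Totals ran from 5098395 to 12379041 reads, and log2 values of 2 libraries correlated across genes, which are not independent, at r of 0.447 to 0.676 within 6h, 0.611 to 0.801 within Day1 and 0.420 to 0.719 between the groups. Haemoglobin genes took 70.1%, 61.1%, 70.3% and 26.2% of the reads in 6h replicates 1 to 4, and 64.1%, 16.1%, 53.2% and 29.6% in Day1 replicates 1 to 4. Those shares overlapped (exact two-sided permutation test, p = 0.257). Genes with at least 1 read numbered 7631, 10581, 11708 and 11357 at 6h and 14563, 16647, 13285 and 12776 at Day1. Every Day1 library therefore held more genes than any 6h library (exact two-sided permutation test, p = 0.0286, the smallest that 4 against 4 allows). At an equal number of 1594940 reads outside haemoglobin, 9877 ± 1739 (SD, n = 4) genes would be expected at 6h and 13389 ± 1507 (SD, n = 4) at Day1 (exact permutation p = 0.0571). Y-linked genes had reads in replicates 3 and 4 of 6h and in replicates 2, 3 and 4 of Day1, and were at 0 in the other 3 libraries, so the presence of these reads is unevenly mixed with time.

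**Figure D1:**
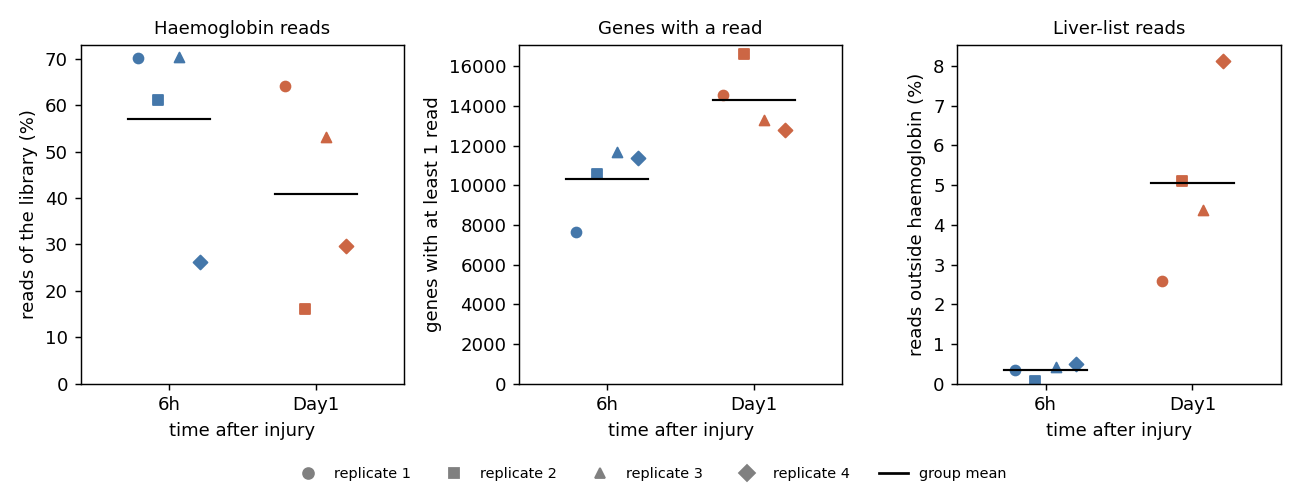
Share of reads from haemoglobin genes, number of genes with at least 1 read, and share of reads outside haemoglobin from the liver lists, for the 4 libraries of each time (points, one symbol per replicate number; bars, group means). The haemoglobin shares overlap, while all 4 Day1 libraries lie above all 4 6h libraries in the other 2 panels.

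Markers of the labelled material were looked up in every library. The leukocyte gene Ptprc had reads in all 8, from 0.724 to 131 at 6h and from 9.04 to 58.8 at Day1. Red cell and platelet genes were abundant in all 8, with Alas2 between 845 and 110892 and Pf4 between 40.6 and 7203. Of the mesenchymal markers, the secreted proteoglycan Dcn (10.6 to 928) and the collagen Col1a1 (0.379 to 131) had reads in all 8 libraries. The receptor Pdgfra had reads in 4 of 8 and did not exceed 2.04. Mesothelial Upk3b, from the lining of body cavities, reached 582 at 6h and 721 at Day1. Of the basal skin keratins, Krt5 had 0 reads in all 8 libraries, while Krt14 had reads in all 8, from 17.1 to 163 at 6h and from 31.3 to 88.4 at Day1.

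In limma with Benjamini-Hochberg adjustment over all 10108 genes, 20 genes rose (0.198%) and 0 fell (0%) from 6h to Day1 at an adjusted p under 0.05. Of those 20, 19 were on 2 lists of hepatocyte transcripts, of which 155 members were tested, and 1 of the 9953 other genes passed. The same fit gave 1173 genes an unadjusted p under 0.05, among them 147 lower ones outside the liver lists. DESeq2 called 18 genes lower and edgeR 0. Differences are given on the log2(value + 1) scale, where the median over all genes was 0.54, the value against which single differences are read. Without a test, all 4 Day1 values lay above all 4 6h values for 550 genes (5.44%) and below them for 94 genes (0.93%). Outside the liver lists these were 461 above and 94 below. A gene with all 4 6h values under 1 met the filter only if all 4 Day1 values reached 1. For such genes the separation was fixed by the filter and is no support. Among the 461 were 30 genes with 0 reads at 6h. The fit with the 8 libraries alone called 87 genes (0.861%), 18 of them outside the liver lists. DESeq2 on the recovered reads called 135 (1.34%), 117 of them higher, and edgeR called 12 (0.119%). The count also moved with single libraries, to 3, 8 and 2 without 6h replicates 1, 2 and 3, to 8, 8 and 3 without Day1 replicates 2, 3 and 4, and to 88 and 42 without Day7 replicates 1 and 2. With values scaled to all reads of a library, 1972 genes lay wholly above and 14 wholly below, with a median difference of 1.59 over all genes.

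**Figure D2:**
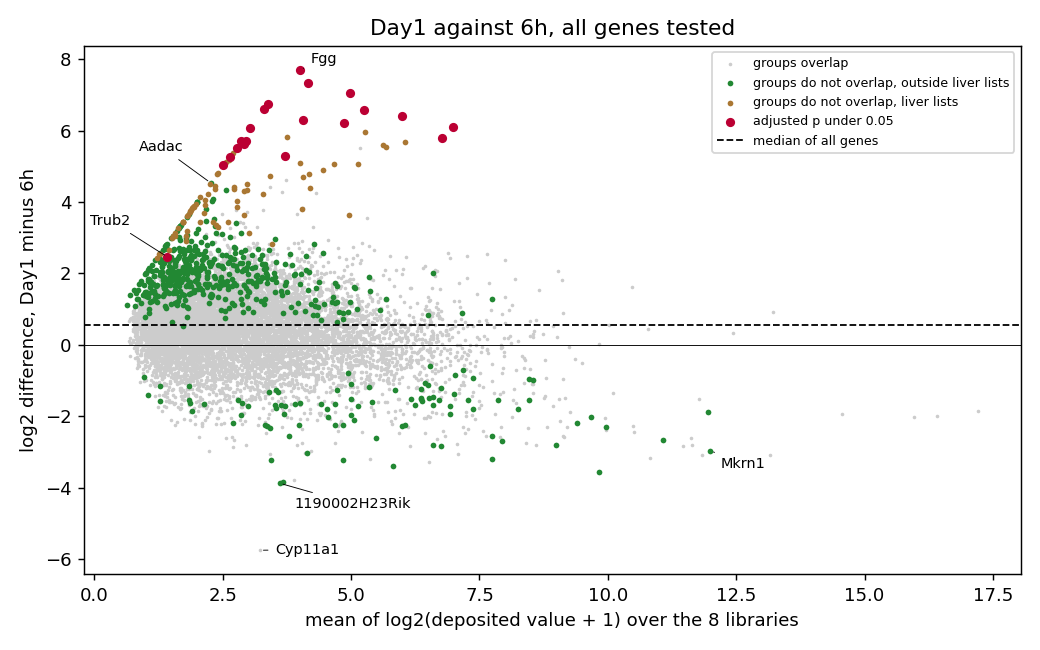
Log2 difference, Day1 minus 6h, of 10108 genes against their mean log2(value + 1) over the 8 libraries (red, adjusted p under 0.05 in limma; green and brown, all 4 Day1 values on one side of all 4 6h values, outside and on the liver lists; grey, overlapping groups; dashed line, median of all genes at 0.54). The red points are all above the line, and green points at the abundant end of the plot lie below 0.

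The promoters of 3 genes are printed as examples of the groups described: Fga, a fibrinogen chain that rose, Trub2, the gene outside the liver lists that rose, and Alas2, the enzyme that starts haem synthesis in red cells, the most abundant member of the erythroid list, whose groups overlapped. Each is the 250 bases before the annotated start, 5′ to 3′ on the gene's strand, from RefSeq on GRCm38.p6, which is not the mm9 build that the submitters' processing notes list. Capitals in Fga mark GTTAAT on either strand, a half-site of the hepatocyte factor HNF1. Capitals in Alas2 mark AGATAA on either strand, a site of the GATA factors of red cells, and no letters were searched for in Trub2. Fga and Alas2 are not typical in this respect. GTTAAT was absent from the windows of Fgg, Hpx, Ambp and F2, the other liver genes looked at. AGATAA was absent from those of Mkrn1, Adipor1, Isca1 and Fbxo7, which stood lower at Day1.
Fga, chr3:83025903-83026152, plus strand: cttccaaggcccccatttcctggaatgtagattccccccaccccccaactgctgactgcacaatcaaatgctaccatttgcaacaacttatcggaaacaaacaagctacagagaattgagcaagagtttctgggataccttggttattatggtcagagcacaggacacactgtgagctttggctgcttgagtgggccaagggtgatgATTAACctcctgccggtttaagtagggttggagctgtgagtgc
Trub2, chr2:29787672-29787921, minus strand: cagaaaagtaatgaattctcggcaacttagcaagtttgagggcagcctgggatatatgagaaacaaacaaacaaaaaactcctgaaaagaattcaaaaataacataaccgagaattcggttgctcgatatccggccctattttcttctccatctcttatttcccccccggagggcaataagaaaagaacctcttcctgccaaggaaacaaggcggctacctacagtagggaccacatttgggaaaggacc
Alas2, chrX:150547167-150547416, plus strand: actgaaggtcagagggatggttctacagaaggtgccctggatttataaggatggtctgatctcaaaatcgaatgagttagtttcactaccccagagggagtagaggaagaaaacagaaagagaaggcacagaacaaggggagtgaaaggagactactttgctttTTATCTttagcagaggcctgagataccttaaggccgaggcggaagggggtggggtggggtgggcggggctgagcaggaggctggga

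Shares are counted per gene with an annotated promoter, and a gene counts when any of its windows holds the letters. GTTAAT was present for 30 of 118 tested liver-list genes (25.4%), against 4.93% of all tested genes and 7.49% of all 27025 genes. For the changed liver genes it was 3 of 16 (18.8%). Among genes outside those lists that lay wholly higher at Day1, 5.96% held it. AGATAA was present for 6 of 33 tested erythroid genes (18.2%), against 7.41% of tested genes and 11.4% of all 27025 genes. It was present for 6 of 56 genes that lay wholly lower (10.7%), and for 19 of 118 tested liver-list genes (16.1%). These shares describe the letters only, and neither of the 2 motifs contains the other.

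The liver transcripts are the reference against which the rest is read. Fgg, a fibrinogen chain, had values of 0, 0, 0 and 0.539 in 6h replicates 1 to 4 and of 178, 295, 197 and 276 in Day1 replicates 1 to 4. No Day1 library came near a 6h library, and the log2 difference was 7.70 (SE 1.09, limma adjusted p = 0.00106). Fga followed at 7.34, Hpx, the haem carrier hemopexin, at 7.07, Ambp, the precursor of bikunin, at 6.75, and F2, prothrombin, at 6.62. Ambp and F2 had 0 reads in all 4 6h libraries, so their log2 differences depend on the pseudocount. Over pooled reads and a floor of 3 reads for the whole 6h group, Ambp was at least 1307-fold and F2 at least 1459-fold higher at Day1. In all, 31 of 38 tested acute-phase members (81.6%) and 58 of 117 other liver members (49.6%) lay wholly above their 6h values, against 5.44% of all genes. None lay wholly below, against 0.93% of all genes. Without 6h replicate 1 or 6h replicate 3 the calls of Fga, Hpx and F2 were lost (limma adjusted p of 0.0664 to 0.0811), as were those of Fga and F2 without Day1 replicate 4 (0.0598 and 0.0908). Fgg differed by 7.67 among libraries with Y-linked reads and by 7.48 among those without. As a share of reads outside haemoglobin, the liver lists took 0.0649% to 0.506% at 6h and 2.598% to 8.14% at Day1.

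Trub2, a pseudouridine synthase that modifies RNA, was the gene outside the liver lists that passed the test. It had 0, 0.379, 0 and 0.240 at 6h and 8.03, 3.23, 6.07 and 4.83 at Day1. Its 6h values were all under 1, so the filter admitted it only with all 4 Day1 values above them. Reads numbered 5 at 6h and 372 at Day1. The log2 difference was 2.46 (SE 0.53, limma adjusted p = 0.0463). The call stands close to the threshold: DESeq2 gave an adjusted p of 0.0307 and edgeR 0.535, and leaving out any single 6h or Day1 library took it to between 0.0736 (without Day1 replicate 1) and 0.123 (without 6h replicate 2). Leaving out Day7 replicates 2, 3 and 4 gave 0.0517, 0.0605 and 0.0767. The difference was 2.33 among libraries with Y-linked reads and 2.94 among those without, where Day1 has 1 library, and a term for these reads gave an adjusted p of 0.0803.

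Beyond the listed liver genes, the 15 largest differences among genes with wholly higher Day1 values and a Day1 mean of at least 10 ran from 3.33 to 4.54, and none of the 15 passed limma's adjusted threshold. Genes known from hepatocytes but absent from the liver lists were among them. Aadac, an esterase of the liver endoplasmic reticulum, was at 0 in all 4 6h libraries and at 7.29, 13.9, 22.8 and 97.3 at Day1. Day1 replicate 4 was the highest by far, and over pooled reads Aadac was at least 402.6-fold higher (log2 difference 4.54, SE 1.27, limma adjusted p = 0.144). Slc27a2, which transports and activates fatty acids, had 0.373, 0, 0 and 1.14 at 6h and 8.03, 20.003, 31.1 and 80.8 at Day1, a difference of 4.34 (SE 1.02, limma adjusted p = 0.0685). Again the groups did not overlap and Day1 replicate 4 stood highest.

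Slc25a47, a mitochondrial carrier of liver, and Reep6, which shapes the endoplasmic reticulum, each had 3 reads at 6h, all in replicate 2. Over pooled reads their Day1 to 6h ratios were 259 (exact 95% interval 88.4 to 1255) and 257 (87.7 to 1245), intervals that cover counting error only. Slc38a3, a glutamine transporter, Apon, an apolipoprotein, and Habp2, a plasma protease that binds hyaluronan, had 0 reads at 6h and were at least 331.8-fold, 179.9-fold and 149.9-fold higher. Gjb1, a gap junction protein of hepatocytes, was separated by a narrow gap, with 5.87 in 6h replicate 4 against 6.06 in Day1 replicate 1. In the fit with the 8 libraries alone, Aadac, Slc27a2, Slc25a47, Reep6, Slc38a3, Apon and Habp2 passed, with adjusted p from 0.0140 to 0.0328 in limma. Day1 replicate 4, the library with the largest share of liver-list reads, had the highest value for each of these 7.

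Other members of the set are known from epithelia, metabolism and signalling, and whether liver RNA contributed to them was not tested. Day1 replicate 4, with the largest share of liver-list reads, was also the highest library for Pigr, Ubxn11, Rarres1, Naprt1 and Faah. For Sh2d3c and 1100001G20Rik the highest were Day1 replicates 1 and 2. Pigr, the receptor that carries antibodies across epithelia, was at 0 in all 4 6h libraries and at 10.4, 10.7, 13.3 and 35.0 at Day1. It was at least 182.6-fold higher over pooled reads (log2 difference 4.02, SE 1.00, limma adjusted p = 0.0940), and it was the 1 gene outside the liver lists that edgeR called. Ubxn11, a UBX domain protein, was at 0 at 6h and at 4.45, 3.36, 32.3 and 32.4 at Day1. Its Day1 libraries fell into a lower and a higher pair, and the difference was 3.67 (limma adjusted p = 0.0711). Rarres1, a gene induced by retinoic acid, was at 0 at 6h and at 2.10, 15.5, 10.5 and 18.3 at Day1, at least 136.3-fold higher.

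Naprt1, which makes NAD from nicotinic acid, ran from 0 to 3.38 at 6h and from 4.08 to 32.0 at Day1, a difference of 3.53 (limma adjusted p = 0.0998). Faah, which breaks down endocannabinoids, ran from 0 to 4.104 and from 11.1 to 48.6, a difference of 3.43 (limma adjusted p = 0.157). Sh2d3c, an adaptor of immune cell signalling, had reads in 1 6h library (2.41) and 30.9, 4.74, 9.25 and 27.2 at Day1. For this gene Day1 replicate 1 was the highest and the difference was 3.48 (limma adjusted p = 0.125). On the mature neutrophil list 3 of 21 tested members had wholly higher values (14.3%, against 5.44% of all genes). Of these, Lrg1 is also a liver gene and Slpi is also on the mesothelial list. Their log2 differences were 5.97 for Lrg1, 3.81 for 1100001G20Rik (Wfdc21) and 2.03 for Slpi, with limma adjusted p of 0.0574, 0.144 and 0.322. The neutrophil markers S100a8 and Csf3r overlapped between the groups. Slpi, a protease inhibitor of mucosa and neutrophils, was already at 60.5, 14.8, 65.4 and 82.7 at 6h and reached 136, 284, 287 and 131 at Day1.

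A group of leukocyte receptors and signalling genes was picked after its values were seen, so its members are given as a description. Lair1, an inhibitory collagen receptor of leukocytes, was at 0 in the 4 6h libraries and at 44.2, 3.99, 6.90 and 4.13 at Day1. Day1 replicate 1 was thus far above the other 3, and the difference was 3.29 (SE 0.74, limma adjusted p = 0.0601; at least 83.1-fold over pooled reads). Csf2rb, the shared receptor chain for GM-CSF and interleukin-3, did not exceed 0.724 at 6h and had 41.9, 3.39, 5.61 and 14.1 at Day1. For Lair1 the difference was 2.55 among libraries with Y-linked reads and 5.50 among those without. In both genes Day1 replicate 1 was the highest library, unlike in the liver genes.

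Rasal3, a Ras regulator of blood cells, had 29.0, 4.87, 34.3 and 7.90 at Day1 against at most 1.51 at 6h. Jak3, the kinase of the common gamma chain, had 13.8, 2.92, 24.1 and 9.73 against at most 2.05. Clec10a, a lectin of dendritic cells and macrophages, had 2 reads at 6h, both in replicate 1, and 15.3, 1.54, 1.14 and 8.64 at Day1. Limma adjusted p-values for Csf2rb, Rasal3, Jak3 and Clec10a lay between 0.144 and 0.218. DESeq2 gave adjusted p under its threshold for Lair1 (4.36e-05) and for these 4 (0.00237 to 0.0307). Ptprc, carried by all leukocytes, overlapped between the groups, since 6h replicate 1 had the highest value of all 8 libraries (131).

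Gbp4, a GTPase induced by interferon-gamma, and Hoxb6, a transcription factor of body position, were 2 further genes singled out after their values were seen, because their limma adjusted p came near the threshold. Gbp4 had 1 read at 6h and 7.04, 1.41, 7.20 and 12.7 at Day1 (difference 2.69, limma adjusted p = 0.0574). Its pooled ratio was 191 with an exact 95% interval of 34.1 to 7554. Hoxb6 was at 0 at 6h and at 4.45, 3.93, 3.41 and 1.05 at Day1 (difference 1.98, limma adjusted p = 0.0685). Both had wholly higher Day1 values at a low level, which the filter required because their 6h values were all under 1.

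**Figure D3:**
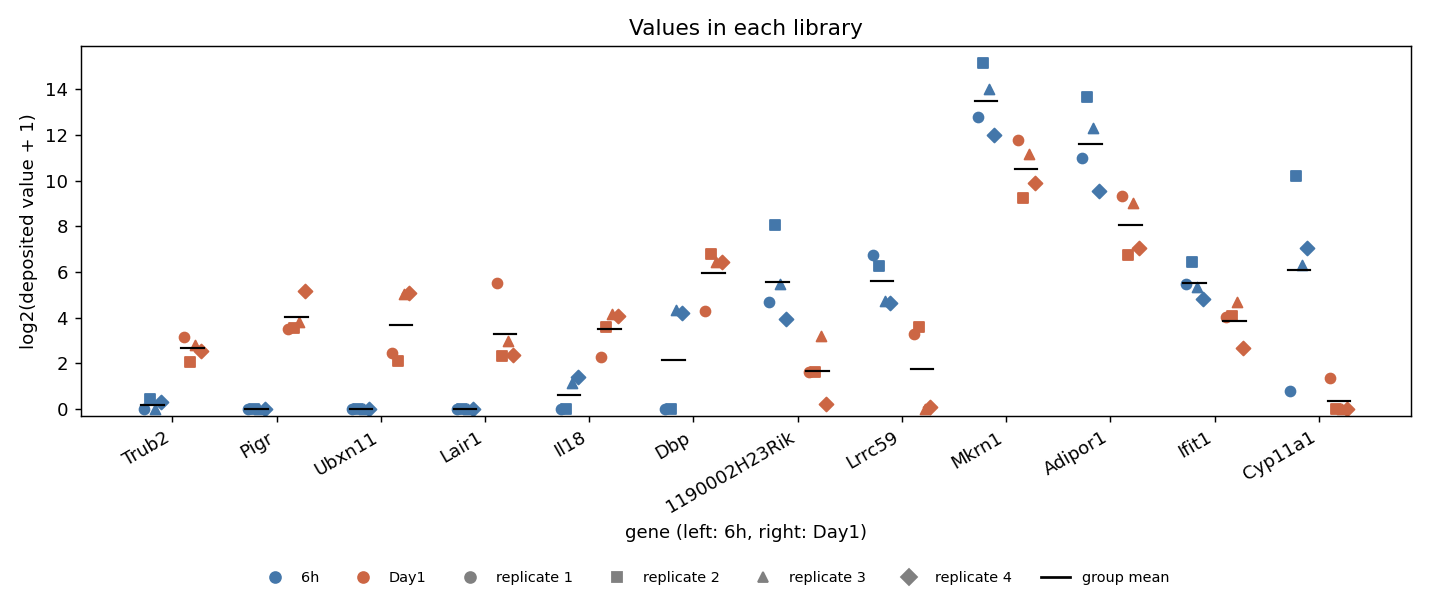
Log2(value + 1) of 12 genes in each library (blue, 6h; orange, Day1; one symbol per replicate number; bars, group means). Trub2, Pigr, Ubxn11, Lair1 and Il18 have wholly higher Day1 values, 1190002H23Rik, Lrrc59, Mkrn1, Adipor1 and Ifit1 wholly lower ones, and Dbp and Cyp11a1 overlap.

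Transcripts that stood lower at Day1 were fewer and more abundant, and none passed limma's adjusted threshold. Of the wholly lower genes described next, DESeq2 called 1190002H23Rik (adjusted p = 0.000376) and Adipor1, Isca1, Diap3, Csda and Dazap2 (0.0163 to 0.0470). It did not call Lrrc59, Mkrn1, Fbxo7, March2, Gm10371, Dnmt1, Cdc25b and Ift140 (0.0526 to 0.371). Abundance was taken in the higher group of each gene. Of the 94 genes with wholly lower values, 86 had a 6h mean of at least 10. Of the 461 that lay wholly higher outside the liver lists, 190 had a Day1 mean of at least 10. The largest difference was that of 1190002H23Rik (Rgcc, a regulator of the cell cycle), with 24.5, 268, 43.2 and 14.6 at 6h and 2.10, 2.07, 8.27 and 0.156 at Day1. The 2 groups did not overlap, and the difference was -3.88 (SE 0.89, limma adjusted p = 0.0636). It was -3.04 among libraries with Y-linked reads and -4.74 among those without. It passed without 6h replicate 4 and without Day7 replicate 1. Lrrc59, a ribosome-binding protein of the endoplasmic reticulum, had 107, 75.7, 25.3 and 24.0 at 6h and 8.65, 11.2, 0 and 0.0778 at Day1 (difference -3.85, SE 0.93, limma adjusted p = 0.0793).

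Of the 94 genes, 5 were on the erythroid list, and others are known to be abundant in reticulocytes. Adipor1, an adiponectin receptor, had 2043, 12989.8, 4999 and 738 at 6h and 640, 108, 525 and 133 at Day1. The gap between the lowest 6h and the highest Day1 library was small beside the spread within 6h, and the difference was -3.57 (SE 1.12, limma adjusted p = 0.221). Mkrn1, a ubiquitin ligase, had 6995, 36037, 16487 and 4051 at 6h and 3498, 601, 2289 and 945 at Day1 (difference -2.96, limma adjusted p = 0.349). Fbxo7, a ubiquitin ligase subunit, had 74.1, 159, 85.9 and 55.6 at 6h and 30.3, 7.38, 19.6 and 0.389 at Day1 (difference -3.24, limma adjusted p = 0.254). Isca1, which builds iron-sulfur clusters in mitochondria, had 315, 2762, 1292 and 154 at 6h and 150, 18.3, 108 and 78.3 at Day1 (difference -3.19, limma adjusted p = 0.286). In Mkrn1, Isca1 and Adipor1 the highest library was 6h replicate 2 and the lowest was Day1 replicate 2.

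March2, a membrane ubiquitin ligase, ran from 2509 to 15243 at 6h and from 436 to 1595 at Day1 (difference -2.67). Csda, a cold-shock domain protein, ran from 417 to 4949 and from 93.2 to 306 (difference -2.81). Dazap2, an adaptor protein, ran from 197 to 2649 and from 58.2 to 159 (difference -2.68), and the predicted gene Gm10371 from 92.9 to 797 and from 10.9 to 79.5 (difference -2.80). Growth and cell structure genes were among the 15 too: Diap3, a formin, at -3.40, Dnmt1, which maintains DNA methylation, at -3.04, Cdc25b, a cell cycle phosphatase, at -2.83, and Ift140, of the ciliary transport complex, at -2.61. Limma adjusted p-values of these 8 genes lay between 0.254 and 0.355.

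Over the erythroid list as a whole, 0 of 51 tested members passed in either direction, 38 of 51 had a negative difference and 5 lay wholly lower (9.80%, against 0.93% of all genes). The list's median was -0.93, against 0.54 over all genes tested. With 1 library left out it ran from -1.44 without Day1 replicate 1 to -0.59 without Day1 replicate 2. Its most abundant member, Alas2, had 15511, 110892, 50840.2 and 5952 at 6h and 7742, 845, 5223 and 2852 at Day1. Those ranges overlapped, since Day1 replicate 1 exceeded 6h replicate 4, and the difference was -3.10 (SE 1.43, limma adjusted p = 0.417). Bpgm, which makes the oxygen regulator of red cells, ran from 2346 to 55583 at 6h and from 384 to 3902 at Day1.

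Haemoglobin genes had a median of -1.99 over 7 members, 0 of which passed. Hbb-b1 ran from 89896 to 540261 at 6h and from 26746 to 192848 at Day1. Reads of the near-identical globin copies may be split between them. The erythroid median stayed below the all-gene median under each scaling that was tried, but its sign did not: with values scaled to all reads it was 0.31, beside 1.59 for all genes, and scaled to reads outside haemoglobin it was -0.11, beside 1.21. Among libraries with Y-linked reads the erythroid median was -1.08 and among those without, where Day1 has 1 library, it was -0.31.

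**Figure D4:**
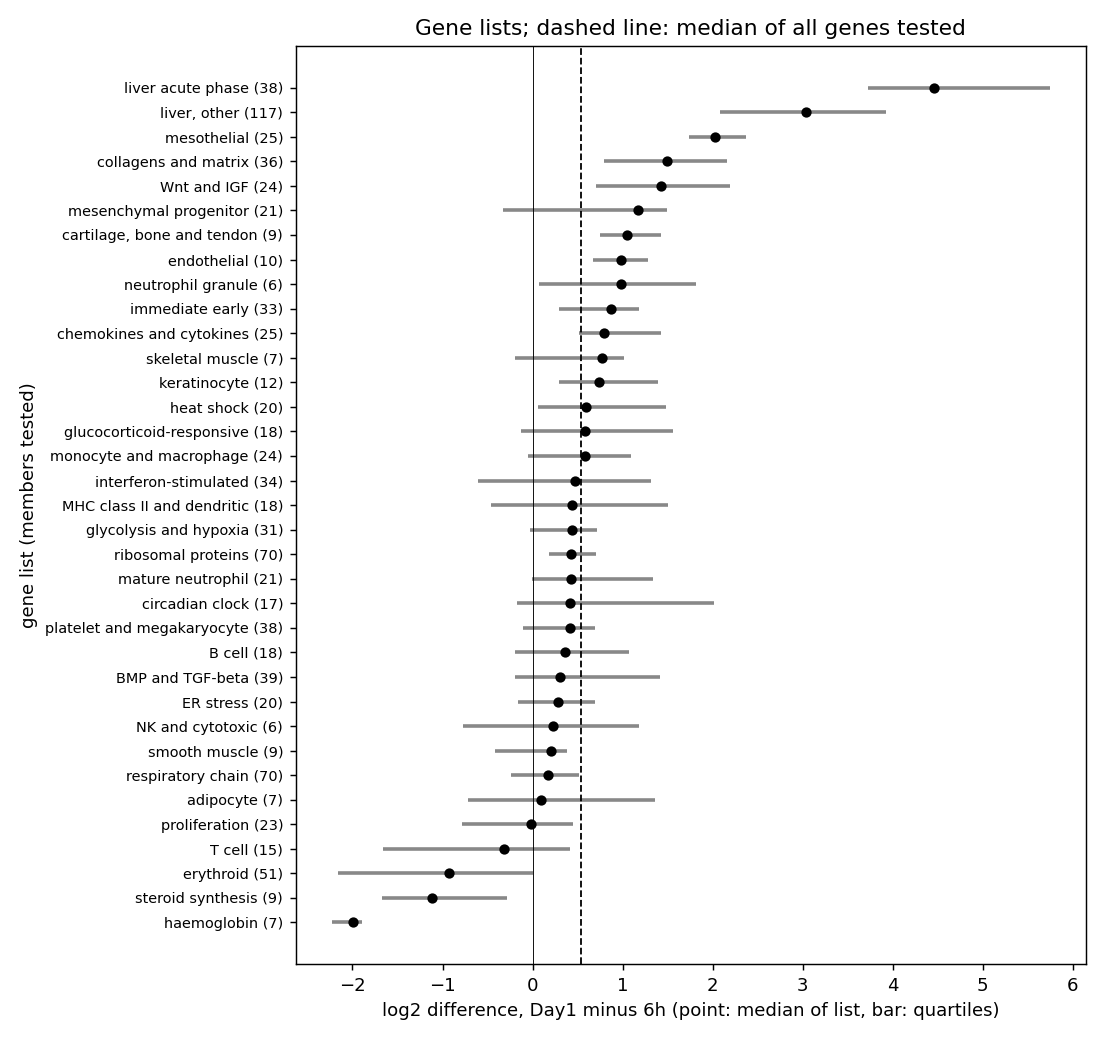
Median log2 difference (points) and quartiles (bars) of 35 gene lists, with the number of members tested in brackets; the dashed line is the median of all genes at 0.54. The 2 liver lists and the mesothelial list lie at the top, and the erythroid (-0.93), steroid (-1.12) and haemoglobin (-1.99) lists at the bottom.

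Apart from the liver lists and Hp, which is also on the neutrophil granule list, 0 members of any list passed limma's adjusted threshold. At an unadjusted p under 0.05 there were 11 of 51 erythroid genes, 10 of 36 matrix genes, 9 of 24 Wnt and IGF genes, 8 of 25 mesothelial genes, 6 of 39 BMP and TGF-beta genes and 5 of 17 clock genes. No platelet gene reached it, and over all genes tested it was reached by 1173 of 10108. A positive difference was found for 7265 of the 10108. The list medians moved with single libraries, so the lowest and highest median with 1 library left out is given with each below, and for all genes these were 0.39 without 6h replicate 1 to 0.68 without 6h replicate 4.

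Interferon-stimulated genes held both higher and lower members. Isg20, an antiviral exonuclease, had 3515, 9395, 4277 and 947 at 6h and 1753, 278, 981 and 308 at Day1. It overlapped between the groups and its difference was -2.45 (limma adjusted p = 0.424). Ifit1, which binds viral RNA, had 43.9, 85.6, 39.6 and 27.2 at 6h and 15.2, 15.9, 24.7 and 5.33 at Day1, wholly lower, with a difference of -1.66 (limma adjusted p = 0.410). Ifitm3, a membrane antiviral protein, ran from 113 to 248 at 6h and from 222 to 919 at Day1. Over the list of interferon-stimulated genes, 0 of 34 passed, 20 differences were positive and the median was 0.47 (-0.11 without 6h replicate 2 to 0.74 without 6h replicate 1).

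Cyp11a1, which makes pregnenolone from cholesterol and so opens steroid hormone synthesis, had the largest negative difference of any gene described here, although its groups overlapped. It had 0.747, 1176, 79.4 and 133 at 6h and 1.61, 0, 0 and 0 at Day1. The high values sat in 6h replicates 2, 3 and 4, while 6h replicate 1 was below Day1 replicate 1. The difference was -5.75 (SE 1.31, limma adjusted p = 0.0635), and the fit with the 8 libraries alone gave an adjusted p of 0.0353. DESeq2 gave an adjusted p of 0.00430 and edgeR 0.129. In limma Cyp11a1 also passed without 6h replicate 1 and without Day7 replicates 1 and 2. Among libraries with Y-linked reads the difference was -6.70, and among those without -4.12. Reads numbered 5655 at 6h and 13 at Day1. Its electron donor Fdx1 had 0, 412, 30.7 and 49.7 at 6h and 1.36, 16.6, 9.78 and 13.5 at Day1, with the same 3 libraries high. Star, which brings cholesterol into mitochondria, ran from 22.8 to 47.3 and from 13.7 to 40.7, and Scarb1, a lipoprotein receptor, from 16.9 to 87.8 and from 13.7 to 23.7. Of 9 tested steroid genes 0 passed and 8 had a negative difference, with a median of -1.12 (-1.53 without 6h replicate 3 to -0.38 without 6h replicate 2). Scaled to all reads that median was 0.19, still below the all-gene median of 1.59.

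Il18, the interleukin that drives interferon-gamma, had 0, 0, 1.21 and 1.62 at 6h and 3.83, 10.96, 17.0 and 16.0 at Day1. All Day1 values were higher, and the difference was 2.89 (SE 0.74, limma adjusted p = 0.103; DESeq2 adjusted p = 0.0437). Csf1, the macrophage growth factor, had 0, 0, 2.17 and 1.92 at 6h and 3.71, 8.67, 3.19 and 11.2 at Day1 (difference 1.99, limma adjusted p = 0.288). Its receptor Csf1r, a monocyte gene, did not exceed 3.86 at 6h and had 5.19, 18.9, 11.4 and 20.4 at Day1 (difference 2.67, limma adjusted p = 0.316). Nfkbiz, a feedback regulator of NF-kB, overlapped, from 0 to 21.9 and from 14.7 to 62.0. Nfkbia, the inhibitor that NF-kB itself induces, ran from 111 to 187 and from 98.0 to 469. Of 25 tested chemokine and cytokine genes 0 passed, 20 had a positive difference and 2 lay wholly higher (Il18 and Csf1; 8%, against 5.44% of all genes). Their median was 0.80 (0.58 without Day1 replicate 3 to 1.31 without 6h replicate 4).

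Immediate early genes were high at both times. Fos had 59.9, 207, 347 and 305 at 6h and 241, 404, 898 and 237 at Day1. Junb ran from 250 to 570 and from 293 to 1231, and Jun from 105 to 344 and from 91.3 to 563. For all 3 Day1 replicate 3 was the highest library and the groups overlapped. Btg2, an antiproliferative gene of this class, was the 1 of 33 tested members with wholly higher Day1 values (3.03%, against 5.44% of all genes). It had 68.3, 136, 120 and 105 at 6h and 152, 183, 315 and 164 at Day1 (difference 0.90, limma adjusted p = 0.679). Of 33 tested members 0 passed, 26 were positive and the median was 0.87 (0.36 without 6h replicate 1 to 1.08 without 6h replicate 4).

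Among chaperones of the heat shock response, Hspa1b and Cryab varied widely within each group. Hspa1b, an inducible chaperone whose reads may be shared with its copy Hspa1a, had 0.747, 10.6, 42.7 and 66.2 at 6h and 99.4, 127, 326 and 30.1 at Day1. Cryab, a small heat shock protein, had 1.49, 4.17, 86.9 and 80.9 at 6h and 45.2, 222, 246 and 55.0 at Day1. Both overlapped, with differences of 2.77 and 2.65 (limma adjusted p = 0.302 and 0.357). Bag3, their co-chaperone, lay wholly higher, from 4.11 to 16.1 at 6h and from 18.3 to 54.6 at Day1 (difference 1.55, limma adjusted p = 0.506). Hsp90ab1, a constitutive chaperone, ran from 161 to 338 and from 223 to 364. Over 20 tested members 0 passed and the median was 0.60 (0.26 without 6h replicate 1 to 0.72 without Day1 replicate 4). The 20 tested genes of endoplasmic reticulum stress had a median of 0.28 (0.03 without 6h replicate 2 to 0.55 without 6h replicate 4). Hspa5, their main chaperone, ran from 232 to 1289 at 6h and from 153 to 605 at Day1, and its difference of -1.06 became 0.30 with values scaled to all reads.

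Dbp, a D-box factor that the clock drives directly, had the largest difference of the 17 tested clock genes. It was at 0, 0, 19.3 and 17.5 at 6h and at 18.5, 110, 84.6 and 84.5 at Day1. The groups overlapped by a small margin, 6h replicate 3 lying just above Day1 replicate 1. The difference was 3.84 (SE 1.06, limma adjusted p = 0.144), or 2.27 among libraries with Y-linked reads and 4.29 among those without. Its relative Tef had 1.31, 4.17, 20.04 and 21.8 at 6h and 21.8, 41.6, 45.4 and 57.6 at Day1, meeting at the edge of both groups (difference 2.21, limma adjusted p = 0.382). Per1, a clock repressor that glucocorticoids also induce, had 29.1, 0.757, 21.0 and 13.2 and then 19.03, 42.8, 66.1 and 73.6 (difference 2.01, limma adjusted p = 0.421). Nr1d1, which represses clock activators, ran from 0.899 to 37.5 and from 7.79 to 93.6. Of 17 tested clock genes 0 passed, 12 were positive and the median was 0.42 (0.44 without Day1 replicate 2 to 1.12 without 6h replicate 2). That is below the all-gene median, and it stayed below without 6h replicate 4 or Day1 replicates 2 or 3. It was above it without 6h replicates 1 (0.67 against 0.39), 2 (1.12 against 0.53) or 3 (1.00 against 0.60). The same held without Day1 replicates 1 (1.01 against 0.60) or 4 (0.69 against 0.54). The clock median was also above that of all genes among libraries with Y-linked reads (0.96 against 0.35) and among those without (0.84 against 0.65). The hours of day at which blood was drawn were not stated in any label.

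Of the genes that respond to glucocorticoids, Sgk1, a kinase of salt transport and stress, had 1.68, 864, 119 and 21.0 at 6h and 6.92, 10.7, 13.95 and 12.9 at Day1, with 6h replicate 2 far above the rest. Dusp1, a phosphatase that limits MAP kinases, ran from 71.7 to 325 and from 53.5 to 522. Cdkn1a, a cell cycle inhibitor, ran from 58.6 to 246 and from 59.7 to 272. The list had 18 tested members, 0 of which passed, and a median of 0.58 (0.28 without Day1 replicate 3 to 0.93 without Day1 replicate 1).

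Matrix, mesothelial and mesenchymal lists had higher medians than all genes, yet 0 of their members passed. Without 6h replicate 2 these medians were 0.91, 0.97 and 0.48, against 0.53 for all genes, so the mesenchymal median was no longer above it. Of 25 tested members of the mesothelial list, 25 had a positive difference and 1, Slpi, lay wholly higher (4%, against 5.44% of all genes). The list had a median of 2.03 (0.97 without 6h replicate 2 to 2.77 without 6h replicate 3). Its level, the mean log2(value + 1) of its members, was 4.06, 1.78, 6.80 and 5.62 in 6h replicates 1 to 4 and 5.06, 7.31, 6.70 and 6.96 in Day1 replicates 1 to 4. The 5 libraries with Y-linked reads held the 5 highest levels. Among them the median difference was 0.66, against 0.35 for all genes, and among the 3 without it was 2.13, against 0.65. Upk3b had 67.8, 0.379, 582 and 307 at 6h and 92.1, 721, 373 and 687 at Day1, so 6h replicate 2 was almost without it. Krt19, a keratin of simple epithelia, ran from 3.41 to 638 at 6h and from 132 to 638 at Day1. Igfbp6, which binds insulin-like growth factors, ran from 36.0 to 1100.3 and from 270 to 2787.

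Collagens and matrix had 36 tested members, 32 with a positive difference, 0 that passed and 0 that lay wholly higher, with a median of 1.49 (0.75 among the libraries with Y-linked reads and 1.26 among those without). Leaving out 1 library gave 0.91 without 6h replicate 2 to 2.13 without 6h replicate 3. Col3a1, a fibrillar collagen, had 70.01, 0.379, 358 and 152 at 6h and 73.7, 510, 283 and 634 at Day1. Sparc, a collagen-binding matrix protein, had 8.21, 602, 525 and 220 and then 105, 1214, 312 and 678. For Sparc, unlike Col3a1, 6h replicate 2 was among the high libraries. Mgp, an inhibitor of calcification, ran from 6.44 to 149 and from 69.7 to 675 (difference 2.09, limma adjusted p = 0.427). Timp2, an inhibitor of matrix proteases, ran from 3.79 to 287 and from 60.6 to 590.

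Mesenchymal progenitor markers, the cells named in the labels, had 21 tested members, 14 with a positive difference, 0 that passed and 0 that lay wholly on one side, with a median of 1.17 (0.48 without 6h replicate 2 to 1.48 without 6h replicate 3). Dcn had 170, 10.6, 769 and 371 at 6h and 189, 928, 612 and 866 at Day1. Vim, an intermediate filament protein, had 102, 108, 170 and 74.7 and then 59.0, 432, 165 and 256. Both overlapped widely. Among libraries with Y-linked reads the median was 0.70 and among those without 1.08.

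Signals of bone formation were covered by 3 lists, and 0 of their members passed. Id1, Id2 and Id3, targets of bone morphogenetic proteins, ran from 52.2 to 204, 26.5 to 384 and 113 to 477 at 6h and from 71.4 to 190, 27.1 to 80.6 and 87.3 to 398 at Day1. Of 39 tested BMP and TGF-beta genes 0 passed, 26 were positive and the median was 0.30 (0.21 without 6h replicate 1 to 0.84 without 6h replicate 4). Spp1, osteopontin, had 0, 2468, 149 and 33.2 at 6h and 6.55, 4.33, 0 and 679 at Day1, with 1 high library in each group. The 9 tested genes of cartilage, bone and tendon had a median of 1.05 (0.66 without 6h replicate 1 to 1.54 without 6h replicate 3). Wnt and IGF genes had a median of 1.43 over 24 tested members, of which 0 passed and 2 lay wholly higher (8.33%, against 5.44% of all genes). That median was 0.79 among libraries with Y-linked reads and ran from 0.98 without 6h replicate 2 to 1.90 without 6h replicate 3. The 2 genes were Wnt5a, a secreted Wnt ligand, with 0, 1.14, 2.66 and 6.47 at 6h and 9.27, 15.9, 8.42 and 20.6 at Day1 (limma adjusted p = 0.287), and Mirg, a noncoding RNA of the imprinted Meg3 locus, from 0 to 0.966 and from 1.98 to 3.39 (limma adjusted p = 0.163). For Mirg, with all 6h values under 1, the filter allowed no other outcome.

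**Figure D5:**
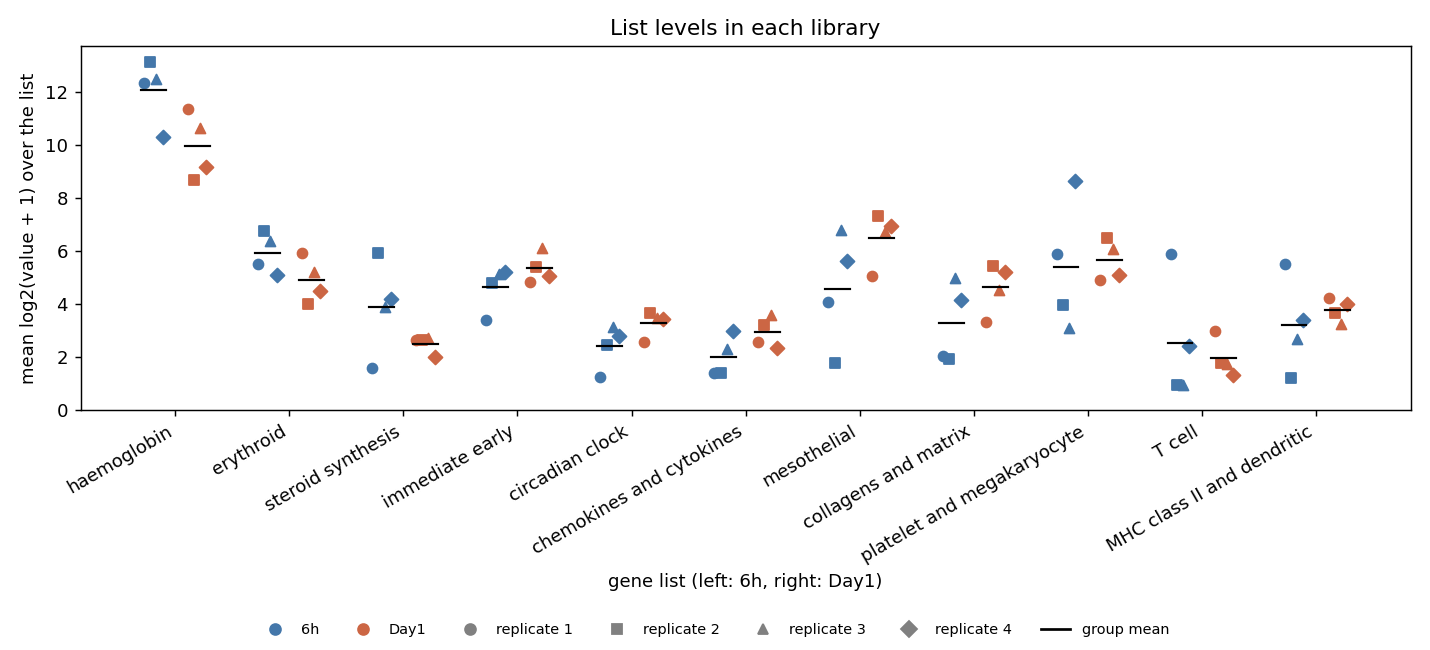
Mean log2(value + 1) over the members of 11 lists in each library (blue, 6h; orange, Day1; one symbol per replicate number; bars, group means). The mesothelial level is lowest in 6h replicate 2 (1.78), the platelet level highest in 6h replicate 4 (8.66) and the T cell level highest in 6h replicate 1 (5.90).

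Of the skin, muscle and fat genes 0 passed. Krt10, a keratin of the upper epidermis, had 0, 1.14, 1.93 and 0 at 6h and 3.71, 6.03, 8.57 and 9.73 at Day1, wholly higher, with a difference of 2.27 (limma adjusted p = 0.197). Lgals7, a galectin of stratified epithelia, had 42.6, 0, 39.1 and 25.5 and then 18.9, 281, 65.2 and 66.6. The 12 tested keratinocyte genes had a median of 0.73 (0.30 without 6h replicate 2 to 1.12 without 6h replicate 1). Car3, a carbonic anhydrase of fat, muscle and liver, had 3 reads at 6h and 1.24, 7.19, 6.52 and 70.3 at Day1, a pooled ratio of 259.9 (exact 95% interval 88.8 to 1261). Des, an intermediate filament of muscle, ran from 0 to 28.4 and from 5.31 to 41.2. The 7 tested skeletal muscle genes had a median of 0.77 (0.33 without 6h replicate 2 to 1.07 without Day1 replicate 2) and the 10 endothelial genes of 0.99 (0.33 without 6h replicate 2 to 1.87 without 6h replicate 4). The 9 smooth muscle genes had a median of 0.20 (-0.54 without 6h replicate 3 to 1.10 without 6h replicate 4). Their mean log2 level was 4.63 at 6h and 4.89 at Day1, above the 2.66 and 3.19 of all genes. It was highest in 6h replicate 4 (6.44), the library with the highest platelet level (8.66). In that library Myl9 of the smooth muscle list stood at 6348 and Vwf of the endothelial list at 1076. The endothelial marker Cdh5 had 0 reads at 6h and 19 at Day1. Which cells this RNA came from was not tested.

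T cell genes reached a level of 5.90 in 6h replicate 1 against 0.93, 0.93 and 2.41 in the other 6h libraries and 1.32 to 2.98 at Day1. Cd3d, part of the T cell receptor, had 224 in 6h replicate 1 and at most 7.19 in any of the other 7 libraries. Cd74, the invariant chain of class II antigen presentation, had 3942, 18.2, 181 and 445 at 6h and 226, 309, 202 and 182 at Day1. Apoe, a lipoprotein of macrophages and liver, had 9133 in the same library and 90.1 to 4901 elsewhere. The median was -0.32 for 15 T cell genes (-0.98 without 6h replicate 2 to 0.57 without 6h replicate 1) and 0.44 for 18 class II and dendritic genes (-0.31 without 6h replicate 2 to 1.41 without 6h replicate 1). It was 0.36 for 18 B cell genes (-0.28 without 6h replicate 2 to 1.14 without 6h replicate 1), 0.23 for 6 NK genes (-0.24 without 6h replicate 3 to 0.66 without 6h replicate 1) and 0.58 for 24 monocyte genes (0.10 without 6h replicate 2 to 1.25 without 6h replicate 1). Of all these 0 passed, and the sign of the first 4 medians changed with the library left out.

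Platelet genes reached a level of 8.66 in 6h replicate 4, against 3.08 to 5.87 in the other 6h libraries and 4.91 to 6.50 at Day1. Nrgn, a calmodulin-binding protein that platelets hold in quantity, had 2760.05, 364, 191 and 25912 at 6h and 932, 5487, 2498 and 1376 at Day1. Pf4, a platelet chemokine, had 759, 126, 40.6 and 7203 and then 276, 2765, 610.2 and 723. The groups overlapped for both. Over 38 tested platelet genes 0 passed, 27 were positive and 0 lay wholly on one side. Their median of 0.41 changed sign with single libraries, from -0.53 without 6h replicate 3 to 1.55 without 6h replicate 4, and was -0.21 without 6h replicate 2. Neutrophil genes had a median of 0.42 over 21 mature members (0.30 without 6h replicate 3 to 1.13 without 6h replicate 4). Over 6 granule members it was 0.98 (0.34 without 6h replicate 2 to 1.48 without 6h replicate 4), and Hp, also a liver gene, was the 1 that rose (2.80, 18.9, 6.04 and 84.2 at 6h; 608, 1537, 941 and 483 at Day1; difference 5.79, limma adjusted p = 0.0334). That call was lost without any 1 of 6h replicates 1, 2 and 3 or Day1 replicates 1 to 4 (adjusted p of 0.0622 to 0.143).

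Of 70 tested ribosomal protein genes 0 passed, 56 had a positive difference and 6 lay wholly higher (8.57%, against 5.44% of all genes), with a median of 0.43 (0.37 without 6h replicate 4 to 0.55 without 6h replicate 2). Rpl14, of the large subunit, had 11.9, 6.82, 14.7 and 14.8 at 6h and 21.6, 32.9, 24.8 and 28.8 at Day1 (difference 1.14, limma adjusted p = 0.565). Rps27 and Rpl36 were lower throughout, at most 1.45 at 6h and from 1.26 to 4.85 at Day1. All 6h values of Rps27 were under 1, so the filter fixed its place among the 6. Of 70 tested respiratory chain genes 0 passed, 42 were positive and the median was 0.17 (0.04 without Day1 replicate 2 to 0.35 without Day1 replicate 1). Ndufa1, of complex I, was the 1 wholly lower member (1.43%, against 0.93% of all genes), from 111 to 339 at 6h and from 41.3 to 106 at Day1. Its difference of -1.20 became 0.14 with values scaled to all reads. Glycolysis and hypoxia genes had a median of 0.44 over 31 members (0.11 without 6h replicate 1 to 0.63 without 6h replicate 4) and cell cycle genes of -0.01 over 23 (-0.54 without 6h replicate 4 to 0.28 without 6h replicate 1), and 0 of these passed. Ube2c, which degrades cyclins, ran from 89.5 to 1456 at 6h and from 29.4 to 306 at Day1.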

How the data were processed

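The labels' protocols describe iChip-enriched mouse blood, RNA purified with a Qiagen micro kit and total RNA libraries. Groups and replicate numbers come from the sample titles, which do not state whether each replicate was its own mouse; p-values then reflect only how far these samples differ, part of which may be technical. The authors deposited 1 table of 37583 genes, named CPM by the file but with unequal column sums. Its signal values were made by the authors by scaling reads per gene with 1 factor per library, as the deposited values themselves show. How that factor was set cannot be told from the values. Per the submitters' processing notes, STAR 2.7.10, HTSeq 2.0.1 and mm9 were used; annotation, strand setting and scaling step are unstated in the labels, so overlapping and antisense genes are uncertain. Of the deposited values 100% are whole multiples of the value of 1 read within 0.01 reads, which gave recovered reads and totals. Gene names in the table were used (32860 IDs matched the reference).

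Testing used limma 3.58.1 in R 4.3.3 (trended variance, log2 of value plus 1) over all 12 libraries, with time as the factor. Alternatives were pseudocounts of 0.25 and 4, other filters and scalings, TMM, median of ratios, the 8 libraries alone, array weights, a replicate block, a Y-linked term, edgeR 4.0.16, DESeq2 1.42.0 and each library left out. Tested on simulated data with 10108 genes, the fit found 12 of 100 genes with an 8-fold change and 85 of 100 with a 64-fold change, beside 6 false calls.

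The members and the 36 gene lists were chosen with earlier results of these data known. Named genes are changed genes outside the liver lists, the 15 largest differences each way among genes whose groups do not overlap with a mean of at least 10 in the higher group, the most abundant and non-overlapping list members, and 5 changed liver genes. Lair1, Csf2rb, Rasal3, Jak3, Clec10a, Gbp4 and Hoxb6 were added after their values were seen. Some genes that meet these rules are not reported here. Floors of 3 reads and the 95% intervals cover counting error only.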

Additional observations from a re-analysis of the deposited data

Results flagged for a closer look

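Within each group of 4, a library was singled out when its gap to the next took more of the group's range than Dixon's test allows at 95%, on the log2(value + 1) scale for genes and lists. Of 220 such looks 20 met this. Chance alone meets it in about 1 of 20 where values are not tied, a rate that does not hold where the others are all at 0. Among list levels, cartilage, bone and tendon reached 5.49 in Day1 replicate 4 (3.94 to 4.05 in the others). The mesenchymal progenitor level was 1.43 in 6h replicate 2 (3.58 to 3.90 in the others). Proliferation was at 1.5004 in 6h replicate 4, and steroid synthesis at 1.99 in Day1 replicate 4. Dbp, Cdc25b and F2 had a Day1 library apart from nonzero others, at 4.29 in replicate 1, 3.47 in replicate 2 and 8.37 in replicate 4. At 6h Lgals7 stood at 0 in replicate 2. In 10 genes the other 3 libraries of the group were at 0, so the gap took the whole range by construction. These genes were 1100001G20Rik (1.10), Fgg (0.62) and Gjb1 (2.78) in 6h replicate 4, and Car3, Reep6 and Slc25a47 in 6h replicate 2 (1.10 each). Clec10a in 6h replicate 1 (0.46), Gbp4 (0.31) and Sh2d3c (1.77) in 6h replicate 3 and Cyp11a1 in Day1 replicate 1 (1.38) complete them. Mirg (0.97) and Naprt1 (2.13) stood out in 6h replicate 3.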

How the results depend on the processing

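Of 134 named genes, 32 changed the sign of their fitted difference in at least 1 alternative, 15 of them with values scaled to all reads. All 32 are among 63 genes described or looked up mainly by level. Hspa5 (-1.06) and Ndufa1 (-1.20) became 0.30 and 0.14 with values scaled to all reads. They are counted among the 63 although their differences are printed. The other 71 genes with a printed difference kept their direction in every alternative run. That follows in part from this sorting. Of the 36 list medians 18 changed sign in at least 1 alternative (67 of 1079 values), and 102 of those values moved by more than the spread within their list. The count of changed genes, 20 in the fit as designed, became 9 with TMM, 44 with array weights, 12 with edgeR, 135 with DESeq2, 87 in the 8 libraries alone, 7 at a mean of at least 10, 0 without a filter (1779 at an unadjusted p under 0.05), 31 and 2 at pseudocounts of 0.25 and 4, 1493 scaled to all reads, 659 to reads outside haemoglobin, 772 to reads outside haemoglobin and liver, 2 with the Y-linked term and 4 without the 2 libraries with the fewest genes (6h replicate 1 and Day7 replicate 3). Leaving out 1 library gave 2 to 88. Outside the liver lists the count of 1 became 0, 9, 1, 74, 18, 0, 0, 7 and 0, 1387, 568, 678 and 0 in the same order up to the Y-linked term, 0 with the filter over 12 libraries and with median of ratios, and 0 to 27 with 1 library left out. With the replicate number as a block it was 48 and 7, and 103 and 24 with the block in the 8 libraries. After subtraction of each group's mean per gene, same-numbered 6h and Day1 libraries correlated at 0.124, -0.088, -0.030 and -0.007. The closest Day1 library carried the same number for 6h replicate 1 only, so the numbers show no general pairing. Genes with wholly higher values numbered 1972 scaled to all reads and 1605 scaled to reads outside haemoglobin, and wholly lower ones 14 and 6. The difference of 3999 in genes detected was 3511 at equal reads outside haemoglobin and 3102 to 4512 with 1 library left out, where 3 against 4 cannot reach the threshold. The cause of these shifts was not tested. Depth limits low genes: 1 read is worth 0.0599 to 0.379 at 6h and 0.0314 to 0.124 at Day1.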
